A study of Mus musculus with 2 samples.

Results

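Conventional dendritic cells of ulcerated mouse skin are described here in 2 single-cell RNA libraries. A cell barcode counted as such a cell when it met a fixed rule on its unique molecular identifiers (UMIs, 1 per captured RNA molecule). H2-Aa and Cd74 together had to reach 1% of its UMIs, and at least 2 of Flt3, Zbtb46, Cd209a, Clec10a, Xcr1 and Clec9a had to have a UMI. Ccr7 and C1qa had to be at 0, the 3 collagen genes Col1a1, Col1a2 and Col3a1 under 0.3%, and S100a8 plus S100a9 under 1% of UMIs. Barcodes entered with 200 or more genes and no more than 15% of UMIs from mitochondria, and 125 of the 31252 that did so met the rule. These were 84 of 16837 wild-type barcodes and 41 of 14415 barcodes of the other library. Since these transcripts chose the cells, their levels are a description and support nothing.

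Conventional dendritic cells take up antigen in the skin, cut it into peptides and show these to T cells on MHC class II molecules. The cDC1 subset, marked by Xcr1 and Clec9a, depends on the transcription factor Irf8 and is known for showing antigen from other cells to CD8 T cells. The cDC2 subset depends largely on Irf4, often carries Cd209a, Clec10a or Mgl2, and is known for priming helper T cells. Once activated, both subsets switch on Ccr7 and travel to the lymph node. A rule without Ccr7 keeps cells in which none was counted, and cells with few Ccr7 transcripts may be among them.

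The skin was lesional skin with ulcerative dermatitis from mice that had 15 consecutive days of tape stripping, 40 to 50 strips per day, as a stand-in for scratching. The treatment label begins mid-sentence, so any step before the stripping is not given. One library is labelled wild type and 1 as overexpressing Has2, a hyaluronan synthase, in the whole body, and the number of animals behind each is not given. Each genotype had 1 library, so no spread between animals could be measured, no test was made, and every interval given is a 95% interval for counting error only. Strain, age and the promoter driving the transgene were not given in the sources used here.

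Has2 itself had 0 UMIs in the dendritic cells of both libraries, which allows up to 3.14 UMIs per 1000000 (CPM) in wild type and 7.49 CPM in the other. Over all other kept barcodes Has2 stood at 71.9 CPM in wild type and 86.1 CPM in the library labelled Has2-transgenic. In barcodes gated as fibroblasts, a known source of Has2, it was 182 CPM in wild type and 146 CPM in the other library. The counts of Has2 in fibroblasts therefore did not follow the label, and "transgenic" stands below for the library labelled so. Whether transgene RNA would be counted as Has2 is not given in the sources used here. The libraries held 143875454 and 134917708 UMIs over 16999 and 14622 barcodes, and 79 barcode sequences occurred in both, 1 of them a dendritic cell in one library. Among the barcodes with the highest doublet scores, which were kept, were 3 wild-type and 0 transgenic members.

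The dendritic cells were a smaller share of the transgenic library. They made up 0.499% of kept barcodes in wild type (exact binomial interval 0.398 to 0.617%) and 0.284% in the transgenic library (0.204 to 0.386%). The ratio of shares was 0.570 (0.383 to 0.838). Barcodes that missed the rule by Ccr7 alone, which carry the marker of migrating dendritic cells, showed the same direction, with 170 in wild type and 49 in the transgenic library (ratio 0.337, 0.240 to 0.465). In the same libraries the fibroblast gate held 5.52% and 13.3% of kept barcodes and the macrophage gate 12.5% and 17.4%, so each share also moves with how many other cells were captured.

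The members were deeply covered in both libraries. Wild-type members had between 2542 and 28983 UMIs with a median of 10385.5, and transgenic members between 4278 and 20892 with a median of 8718. Summed over cells this gave 955206 and 400660 UMIs, so 1 UMI is worth more in the smaller transgenic sum. H2-Aa plus Cd74 had a median of 3.31% of UMIs in wild type and 4.79% in the transgenic library. The lowest members stood at 1.43% and 1.07%, and the nearest barcodes left out for this limit alone at 0.752% and 0.832%. Missing marker UMIs alone kept out 238 wild-type and 240 transgenic barcodes, and C1qa alone kept out 13 and 22.

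The markers that defined the cells were met in different combinations in the 2 libraries. Flt3, the receptor for the growth factor that maintains dendritic cells, had a UMI in 55 of 84 wild-type and 20 of 41 transgenic members. Zbtb46, a transcription factor that sets conventional dendritic cells apart from monocytes and macrophages, had one in 44 and 12. The lectin receptors Cd209a and Clec10a had UMIs in 44 and 58 wild-type members and in 22 and 26 transgenic members. Clec9a, the cDC1 receptor for dead cells, was seen in 11 and 8 members, and the chemokine receptor Xcr1 in 1 and 4. A UMI of Flt3 or Zbtb46 was present in 77 of the 84 wild-type members (91.7%) and in 26 of the 41 transgenic members (63.4%). Of the rest, 7 wild-type and 12 transgenic members had qualified by Cd209a and Clec10a alone.

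Those lectins were less selective than Flt3 in this skin. In barcodes of the macrophage gate, defined by C1qa, C1qb and C1qc, Clec10a had a UMI in 40.7% of wild-type and 38.1% of transgenic barcodes, and Cd209a in 10.0% and 10.3%. Flt3 had one in 0.666% and 0.919% of them, and Zbtb46 in 2.67% and 2.24%. The median depth of that gate was 9321 and 7993 UMIs, close to that of the members. For this reason the main results are also given for members with a UMI of Flt3 or Zbtb46. These made up 0.457% and 0.180% of kept barcodes, a ratio of 0.394 (0.243 to 0.622).

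**Figure D1:**
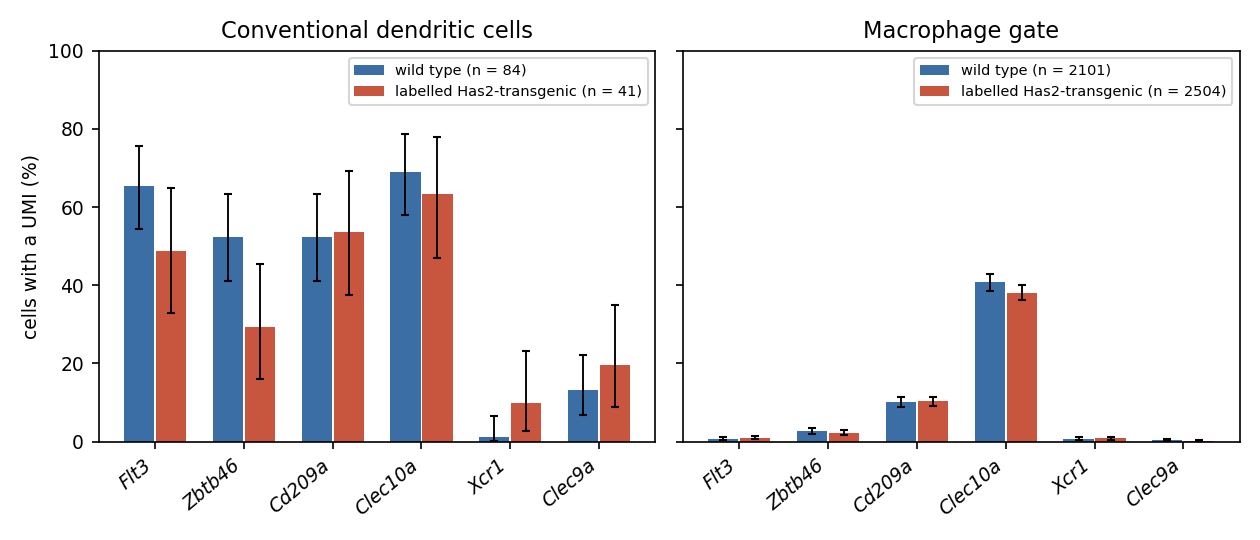
Percentage of cells with a UMI of each marker of the rule (y axis) in conventional dendritic cells (left) and in the macrophage gate (right), by library, with 95% exact binomial intervals as error bars. Clec10a and Cd209a are also seen in macrophage-gate barcodes, at 40.7% and 10.0% in wild type, while Flt3 and Zbtb46 stay under 3% there.

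The 12 genes outside the rule with the largest excess over all other kept barcodes, taken as the smaller ratio of both libraries, included 5 of antigen presentation by MHC class II. Cells make these together with H2-Aa and Cd74, which the rule used. H2-Ab1, the beta chain of the MHC class II molecule, stood at 8726 CPM in wild-type members against 340 CPM in the other barcodes, and at 11107 against 293 CPM in the transgenic library. Ciita, the master switch of MHC class II transcription, was at 119 CPM against 3.13 CPM and at 57.4 CPM against 1.04 CPM. The others of this kind were H2-Eb1, H2-DMb1 and H2-DMb2. Mgl2, a lectin typical of skin cDC2, was 43.3-fold and 44.2-fold higher in members, and Klrd1, a lectin-like receptor better known from natural killer cells, 44.9-fold and 90.2-fold. Klrb1b, Cd7, Ctnnd2, Gpr171 and Htr7 completed the list.

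Markers of other cell types were mostly at low levels, as the plot of marker lists shows. Of the migratory dendritic cell markers, Fscn1, the actin-bundling protein of mature dendritic cells, had 1 UMI in 1 wild-type member and 0 in the transgenic members. That list summed to 178 and 67.4 CPM, against 2313 and 1484 CPM in the barcodes that missed by Ccr7 alone. Of 13 macrophage markers 3 were at 0 in each library, and the list summed to 683 CPM in wild type and 811 CPM in the transgenic members, against 11660 and 19083 CPM in the macrophage gate. B cell and plasma cell markers were at 0 in both, mast cell markers at 0 and 2.50 CPM, and keratinocyte markers at 2.09 and 9.98 CPM. T and NK cell markers stood at 56.5 and 2.50 CPM, neutrophil markers at 116 and 39.9 CPM, fibroblast markers at 13.6 and 19.97 CPM, endothelial markers at 98.4 and 62.4 CPM.

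Monocyte genes and a few single cells stood apart from this. Plasmacytoid dendritic cell markers summed to 357 and 379 CPM, and 1 transgenic member alone reached 10488 CPM of them. Siglech, a receptor of plasmacytoid cells, had 16 UMIs in the transgenic members, all in 1 cell. Cd207, the Langerhans cell lectin langerin, had 0 UMIs in wild type and 20 in 2 transgenic members. Monocyte markers summed to 2860 CPM in wild type and 10143 CPM in the transgenic members, and ranged from 0 to 15145 CPM and from 0 to 43342 CPM over cells. Lyz2 alone made up 6362 CPM of the transgenic sum. Of the 10 measured monocyte markers 5 were higher and 5 lower in the transgenic members, against 33.2% and 66.8% of all measured genes. Their median log2 ratio was 0.27. Ly6c2, a surface protein of inflammatory monocytes, was at 80.6 and 39.9 CPM, and Ccr2, their chemokine receptor, at 54.4 and 97.3 CPM. The part of these cells in the differences between libraries was not tested, and many differences are set beside their value in the members with Flt3 or Zbtb46.

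**Figure D2:**
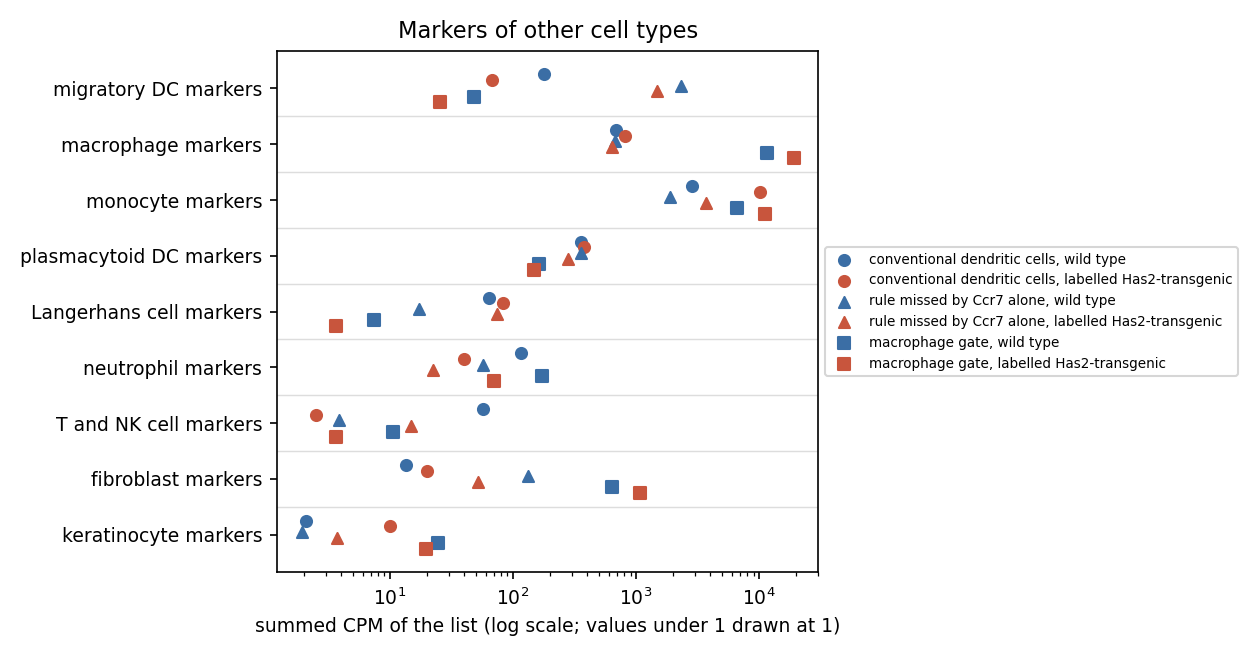
Summed CPM of marker lists of other cell types (x axis, log scale) in conventional dendritic cells (circles), barcodes that missed the rule by Ccr7 alone (triangles) and the macrophage gate (squares), blue for wild type and red for the library labelled Has2-transgenic. Macrophage markers of the dendritic cells lie at 683 and 811 CPM, far under the gate, while monocyte markers of the transgenic dendritic cells reach 10143 CPM, near the gate's 11148 CPM.

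Both subsets were present. Members with more UMIs of Xcr1 plus Clec9a than of Cd209a plus Clec10a are called cDC1-marked, and those with more of the latter cDC2-marked. Wild type had 8 cDC1-marked and 68 cDC2-marked members, and the transgenic library 9 and 29. The cDC1-marked share of members was 9.52% (4.2 to 17.9%) in wild type and 22% (10.6 to 37.6%) in the transgenic library, with overlapping intervals and a ratio of 2.30 (0.789 to 6.87). As a share of kept barcodes, cDC1-marked cells had a ratio of 1.31 (0.450 to 3.91), and cDC2-marked cells a ratio of 0.498 (0.311 to 0.780). With 8 and 9 cells, a difference in the cDC1 share was not detectable at this depth. Only 4 and 2 members had UMIs of both marker pairs.

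Subset genes that had no part in the marking split along it in both libraries. Of the 8 measured genes of the cDC1 list, those with at least 20 UMIs in members, 8 were higher in cDC1-marked than in cDC2-marked members in both libraries. Over all 6127 measured genes this held for 29.4%. The cDC1-marked sums are small, and 3 UMIs in them equal 31.3 CPM in wild type and 35.4 CPM in the transgenic library. Levels near these rest on few UMIs, and the counts of directions take no account of counting error. Itgae, the CD103 integrin chain of skin cDC1, stood at 157 CPM against 18 CPM in wild type (ratio 8.72) and at 59.0 against 20.2 CPM in the transgenic library (2.92). Ifi205, an interferon-inducible gene of cDC1, was at 355 against 159 CPM and at 283 against 23.6 CPM. Naaa, a lysosomal amidase typical of cDC1, was at 125 against 33.4 CPM and at 472 against 165 CPM. Irf8 differed less, with 73.1 against 57.8 CPM and 47.2 against 33.7 CPM. Tlr3, Clnk and Tlr11 had 0 UMIs in all members.

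The cDC2 list went the other way. Of its 11 measured genes, 10 were lower in cDC1-marked members in both libraries, against 26.5% of all measured genes. The count was 7 with Flt3 or Zbtb46 needed, 5 with at least 3 markers, where 3 and 1 members were cDC1-marked, and 4 when the rule was applied after thinning barcodes to 2000 UMIs, where 5 and 3 were. Mgl2 stood at 20.9 CPM in cDC1-marked and 290 CPM in cDC2-marked wild-type members, and at 11.8 and 260 CPM in the transgenic library. Irf4 was at 20.9 and 128 CPM in wild type and at 0 and 33.7 CPM in the transgenic members. Sirpa, the signal-regulatory receptor used to sort cDC2, was at 31.3 and 145 CPM and at 35.4 and 74.2 CPM. Its levels in cDC1-marked members are those of 3 UMIs in each library. The exception was Klf4, a transcription factor of some cDC2, at 10.4 and 186 CPM in wild type but 142 and 74.2 CPM in the transgenic library.

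Per cell, the cDC1 list had a median of 16.7 UMIs per 10000 in the 8 cDC1-marked wild-type members and 4.0 in the 68 cDC2-marked ones. The transgenic medians were 17.5 and 4.64. The cDC2 list had medians of 1.02 and 13.6 per 10000 in wild type and 2.35 and 13.2 in the transgenic library. The ranges overlapped, from 2.73 to 32.1 for the cDC1 list in cDC1-marked wild-type members and from 0 to 30.0 in cDC2-marked ones. One wild-type member without a subset had 68.0 cDC1 list UMIs per 10000, the highest of all 125.

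**Figure D3:**
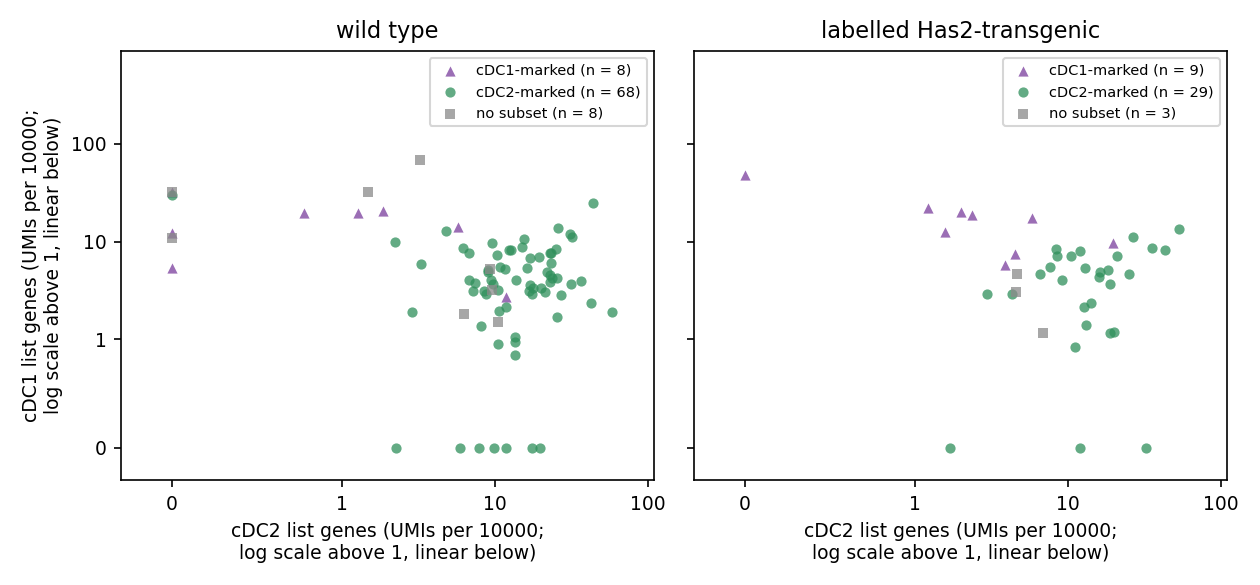
UMIs per 10000 of the cDC1 list (y axis) and of the cDC2 list (x axis) in each conventional dendritic cell, by library, both axes logarithmic above 1 and linear below, with 1 point per cell and subset marks by symbol. Most cDC1-marked cells (triangles) sit at the upper left and cDC2-marked cells (circles) at the lower right in both libraries, with overlapping ranges.

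Beyond the lists, 8 genes were named by size in each direction, taken as the ratio nearer to 1 of the 2 libraries. Plet1, a surface protein of placental name that skin dendritic cells also carry, led for cDC1-marked members at 1442 against 223 CPM in wild type (6.45, interval 5.12 to 8.11) and 744 against 115 CPM in the transgenic library (6.49, 4.21 to 10.2). Cst3, the cathepsin inhibitor cystatin C, stood at 18061 against 4377 CPM and at 12209 against 3094 CPM, in all members of both marks. Gatm, Atp8a1, Septin6, Tbc1d8, Cmtm6 and Specc1 followed. Toward cDC2, Tmem176a had 0 UMIs in the cDC1-marked members of both libraries and 107 and 89 UMIs in the cDC2-marked members. Its neighbour and partner Tmem176b had 1 and 0 against 113 and 106. Pgf, Mmp12, Mgl2, Cd209c, Il1rap and Satb1 completed that side, all with at most 2 UMIs in the cDC1-marked members of either library.

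Members were next set beside the barcodes that met every other condition but had Ccr7. In both libraries 15 of 15 measured genes of maturation and migration were lower in members, against 29.4% of 8713 measured genes. Ccr7, which is switched on with maturation, had chosen both sides. This count and the others set beside the Ccr7 barcodes are therefore descriptions and support nothing. Ccl22, a chemokine that draws T cells, stood at 35.6 and 32.4 CPM in wild-type and transgenic members and at 811 and 378 CPM in the Ccr7 barcodes. Cacnb3, a calcium channel subunit of mature dendritic cells, was at 8.38 and 2.50 CPM against 256 and 214 CPM. Of 15 NF-kB targets 12 were lower in members in both, and of 17 genes of MHC class I presentation 14. In the other direction, 10 of 13 chemokine receptors and adhesion genes were higher in members in both libraries, against 29.1% of all genes. Of 14 genes of hypoxia and glycolysis 12 were higher, for example Hif1a, the oxygen-sensing factor, at 512 and 369 CPM against 369 and 244 CPM. H2-Ab1 was close, at 8726 and 11107 CPM against 8385 and 12028 CPM.

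The 13 wild-type and 22 transgenic barcodes that missed by C1qa alone differed in another way. All 12 measured macrophage markers were lower in members in both libraries, against 26.9% of 6954 measured genes. C1qa, itself a macrophage gene, had chosen both sides. This count and the others set beside the C1qa barcodes are therefore also only descriptions. Class II presentation went the other way, with 9 of 12 measured genes higher in members in both, against 39% of all genes. H2-Eb1 stood at 9830 and 12170 CPM in members and at 5652 and 5917 CPM in the C1qa barcodes. Cd80, a ligand of the T cell receptor CD28, was at 754 and 329 CPM against 158 and 68.2 CPM. Of 14 oxidative stress genes 11 were lower in members in both, and of 14 lysosomal genes 10. Hmox1, the heme-degrading enzyme heme oxygenase, was at 585 CPM in wild-type members against 4833 CPM, and at 5616 CPM in transgenic members against 7937 CPM.

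Between the libraries, most genes of the dendritic cells stood slightly lower in the transgenic library. Of 6127 measured genes outside the rule, 33.2% were higher there and 66.8% lower, with a median log2 ratio of -0.24 after 0.5 UMI was added to each sum. Scaling by the median ratio instead of the total made 50.0% higher. The 10 genes with the largest gain in CPM, among them Fth1, Cd74, Lyz2, Cxcl2 and Hmox1, took 8.17% of UMIs in wild-type and 13.7% in transgenic members. A ratio of at least 2 was reached by 4.26% of genes in the higher direction and by 12.3% in the lower. The lists are read against these figures. Their medians did not depend on genes with 0 UMIs in one library, since setting those to 3 UMIs left every list median as it was.

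Of the lists of gene function, oxidative stress stood highest. Of its 13 measured genes 12 were higher in the transgenic members, 9 of them at least 2-fold, and 13 lay above the median of all genes. Their median log2 ratio was 1.47, and 0.98 in the members with Flt3 or Zbtb46. It was 0.28 in the 39 wild-type and 10 transgenic members that had at least 3 of the 6 markers. Hmox1 stood at 585 CPM in wild-type and 5616 CPM in transgenic members, and the ratio was 9.60 (8.74 to 10.5). It had UMIs in 34 of 84 wild-type members, with a highest cell of 40.4 UMIs per 10000, and in 29 of 41 transgenic members, with a median of 17.2 and a highest cell of 194. In members with Flt3 or Zbtb46 the ratio was 7.32 (6.59 to 8.14), and over all other barcodes of the libraries it was 1.26.

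The enzymes of glutathione and thiol defence went with it. Gclc and Gclm, the subunits of the enzyme that starts glutathione synthesis, had ratios of 3.89 (3.02 to 5.02) and 2.95 (2.19 to 3.97). Srxn1, which restores oxidised peroxiredoxins, was at 171 and 519 CPM (3.04, 2.47 to 3.76), and its ratio was 3.50 (2.76 to 4.44) with Flt3 or Zbtb46. Prdx1, a peroxiredoxin, was at 898 and 2591 CPM, with UMIs in 82 of 84 and 40 of 41 members. Outside the list, Blvrb, which reduces biliverdin, a product of heme breakdown, was at 28.3 and 190 CPM, and its ratio of 6.71 was 7.77 (4.56 to 13.6) with Flt3 or Zbtb46. Sod2, the mitochondrial superoxide dismutase, had a ratio of 3.14 over all members but 0.961 (0.581 to 1.53) in those with Flt3 or Zbtb46. Gpx1, a glutathione peroxidase, was the 1 measured gene that was lower, at 1027 and 909 CPM, and its log2 ratio was 0.063 when scaled by the median ratio of all genes.

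Many genes of this response carry an antioxidant response element, the site read by the factor Nrf2. The letters TGACNNNGC were searched on both strands of the 250 bases before each RefSeq gene start (build GRCm38.p6). They occurred in 10.2% of 32851 windows and in 4 of the 12 oxidative stress genes of the list that could be matched by symbol, out of 14 listed. Prdx1, Gclm, Txnrd1 and Mt2 held them. Those of Prdx1 and Gclm are shown because these genes had the highest ratios of the 4, both over all members and with Flt3 or Zbtb46, at chr4:116685406-116685534 and chr3:122245363-122245491, both on the plus strand. The capitals mark the match, which reads on the opposite strand in both. When cells were chosen after thinning to 2000 UMIs, which left 27 and 13 members, Gclm had 3 and 1 UMIs, too few for a ratio.
Prdx1: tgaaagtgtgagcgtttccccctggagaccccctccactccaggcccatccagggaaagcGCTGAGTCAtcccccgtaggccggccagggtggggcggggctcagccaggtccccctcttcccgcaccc
Gclm: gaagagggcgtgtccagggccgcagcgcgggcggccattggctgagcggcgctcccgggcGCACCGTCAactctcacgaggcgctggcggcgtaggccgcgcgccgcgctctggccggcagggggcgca
The match in Prdx1 starts 133 bases and that in Gclm 134 bases before the gene start. A match is a description of the letters, and nothing here measured binding.

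Some monocyte and macrophage genes were higher too, and here the split by Flt3 or Zbtb46 changed the size. Lyz2, the lysozyme of monocytes, macrophages and granulocytes, stood at 517 CPM in wild-type and 6362 CPM in transgenic members (12.3, 11.2 to 13.6). Its UMIs came from 44 wild-type and 28 transgenic members, and 1 transgenic cell gave 24.3% of them. With Flt3 or Zbtb46 the levels were 528 and 2868 CPM, a ratio of 5.44 (4.82 to 6.13), and without either they were 368 and 11060 CPM. Cd14, the lipopolysaccharide co-receptor, was at 617 and 2294 CPM (3.72, 3.35 to 4.13), and its ratio was 2.30 (2.0 to 2.64) with Flt3 or Zbtb46. C1qb, a macrophage complement gene, had 4 UMIs in wild type and 66 in the transgenic library, 65 of them in 5 members without Flt3 and Zbtb46. Those 15 transgenic members had C1qb at 380 CPM, against 3278 CPM in the macrophage gate, and had no UMI of Apoe, which was at 9001 CPM in that gate. Their levels of MHC class II were like those of the other transgenic members, with H2-Ab1 at 11136 and 11085 CPM. The rule had chosen all members by H2-Aa and Cd74 and by C1qa at 0, and C1qb helped define the macrophage gate. The levels of C1qb and H2-Ab1 are therefore a description and support nothing. Apoe did not stand for every macrophage gene. Cd163 had 0 UMIs in wild type and 19 in the transgenic library. The exact interval of its ratio started at 11.1 over all members but at 0.0996 with Flt3 or Zbtb46. Mrc1 had a ratio of 1.16 over all members but 0.172 with Flt3 or Zbtb46. Whether macrophages were among the members without either gene was not tested.

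**Figure D4:**
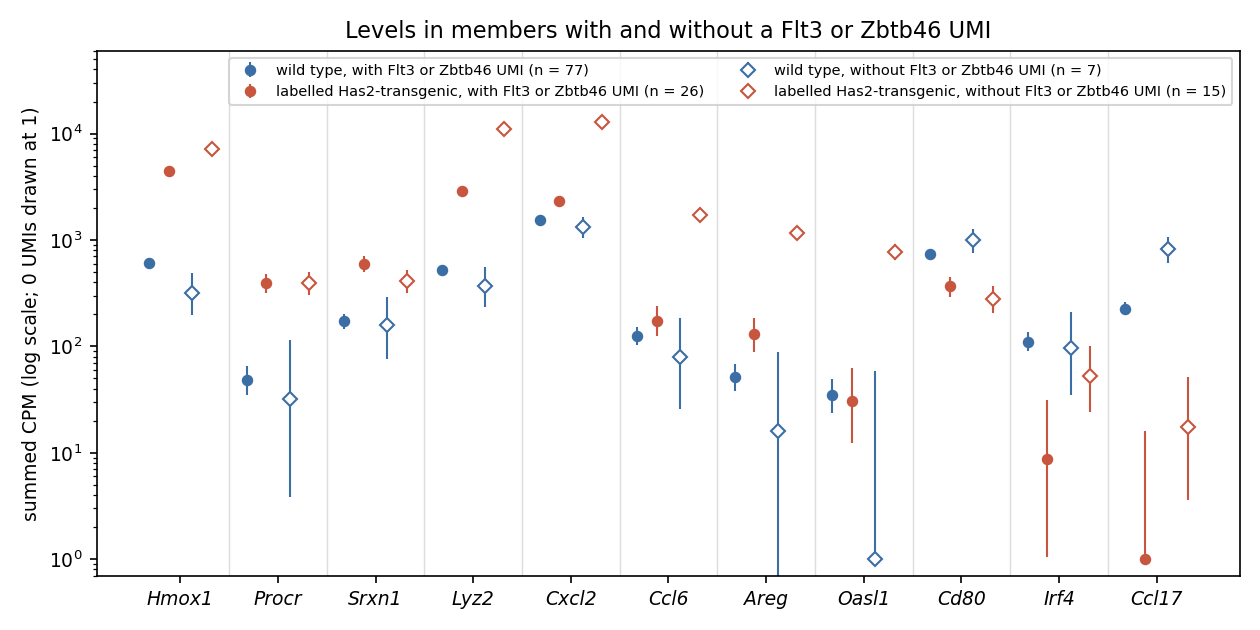
Summed CPM (y axis, log scale, with 0 UMIs drawn at 1) of 11 genes in members with a UMI of Flt3 or Zbtb46 (filled) and without (open), blue for wild type and red for the library labelled Has2-transgenic, with exact Poisson intervals as bars. Hmox1, Procr and Srxn1 are higher and Cd80 and Ccl17 lower in the transgenic members of both kinds, while Cxcl2, Ccl6, Areg and Oasl1 are highest in the 15 transgenic members without either.

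Chemokines and cytokines depended on the same split. The transgenic members had higher levels of 8 of 12 measured chemokines, against 33.2% of all genes. The median log2 ratio of 0.59 became -0.26 when Flt3 or Zbtb46 was required and -1.66 with at least 3 markers. Cxcl2, which draws neutrophils, was at 1518 and 6869 CPM (4.52, 4.24 to 4.83). With Flt3 or Zbtb46 it was at 1533 and 2328 CPM, and without at 1311 and 12974 CPM. Its UMIs were held by few cells, with 80.5% and 74.4% of them in the 5 highest members of each library. Ccl6, a monocyte-attracting chemokine, had a ratio of 6.83 (5.51 to 8.50), which was 1.39 (0.942 to 2.01) with Flt3 or Zbtb46. Ccl5 had 0 UMIs in wild type and 32 in 2 transgenic members without either gene. The exact interval of its ratio, which covers the counting error of both sums, started at 19.5. Ccl5 counted as measured only through these 2 cells. When the rule was applied after thinning barcodes to 2000 UMIs, it had 2 UMIs in wild type and 0 in the transgenic members. Cxcl3, another ligand that draws neutrophils, had a ratio of 2.38 (2.09 to 2.72) but 0.483 (0.360 to 0.638) with Flt3 or Zbtb46. Cxcl10, an interferon-induced chemokine, had 27 and 34 UMIs and a ratio of 3.0 (1.76 to 5.17), with 0 transgenic UMIs in members with Flt3 or Zbtb46. The highest cell held 96.3% of the wild-type and 35.3% of the transgenic Cxcl10 UMIs.

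Among 8 measured cytokines 5 were higher, against 33.2% of all genes. Their median log2 ratio was 0.57, against 0.10 with Flt3 or Zbtb46 and -1.31 with at least 3 markers. Il1b was at 3203 and 5024 CPM, in 68 of 84 and 34 of 41 members. Its ratio of 1.57 (1.48 to 1.66) was 1.08 (0.994 to 1.17) with Flt3 or Zbtb46. Il1a had 35 UMIs in 5 wild-type members and 108 in 10 transgenic members, and its ratio of 7.36 was 2.66 (1.52 to 4.61) with Flt3 or Zbtb46. Il6, which acts on T and B cells, had 13 UMIs in 4 and 40 in 5 members, and 30 of the 40 were in 1 cell. Its ratio of 7.34 was 0.896 (0.164 to 3.26) with Flt3 or Zbtb46, and its log2 ratio was -1.90 with at least 3 markers. Il1rn, the antagonist of the interleukin 1 receptor, had a ratio of 1.54 (1.19 to 1.97) but 0.437 (0.248 to 0.724) with Flt3 or Zbtb46. Il12b and Il27 had 0 UMIs, and Il12a 2 and 0, so these cytokine genes were not measurable at this depth.

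Ccl17 stood out in the other direction. This chemokine, made by skin cDC2 and a ligand of Ccr4 on T cells, had 253 UMIs in 25 of 84 wild-type members and 3 UMIs in 2 of 41 transgenic members. That is 265 and 7.49 CPM (0.0283, 0.00579 to 0.0836). With Flt3 or Zbtb46 the counts were 202 UMIs in wild type and 0 in the transgenic members, and without either 51 and 3. Over all other barcodes Ccl17 was also lower in the transgenic library, with a ratio of 0.0987. In the Ccr7 barcodes it was at 366 and 115 CPM. Ccl22, its close relative, was at 35.6 and 32.4 CPM in members.

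Maturation genes were lower as a group. Of 10 measured genes of that list 1 was higher and 9 were lower in the transgenic members, against 66.8% of all genes, and 2 lay above the median of all genes. The median log2 ratio was -0.59. Il4i1, an enzyme that degrades phenylalanine, was at 108 and 22.5 CPM, with a ratio of 0.208 (0.0926 to 0.411). Cd63, a tetraspanin of endosomes, was the gene that was higher, at 39.8 and 115 CPM. All 9 others, which include Relb, Marcks, Samsn1 and Fabp5, lay between ratios of 0.0283 for Ccl17 and 0.912 for Ccl22.

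Transcription factors and subset genes went in both directions. The transgenic members were higher in 6 of 16 factors, near the 33.2% of all genes, and the median log2 ratio of the factors, -0.24, equalled that of all genes. The same 33.2% stands beside the counts of the subset lists below. Irf4 was at 110 CPM in wild type and 27.5 CPM in the transgenic members, in 33 of 84 and 4 of 41 cells (0.25, 0.121 to 0.465), and 7 of the 11 transgenic UMIs were in 1 cell. Its ratio was 0.0785 (0.00937 to 0.291) with Flt3 or Zbtb46. Ikzf1, the lymphoid factor Ikaros, was at 55.5 and 15.0 CPM, and Irf8 at 69.1 and 37.4 CPM. Irf8 turned direction when cells were chosen after thinning to 2000 UMIs, with a log2 ratio of 2.64, and Ikzf1 when each member was thinned, with 0.38. Cebpb, a factor of monocytes and macrophages, was at 641 and 1278 CPM (1.99, 1.77 to 2.25), and Id2, needed for cDC1, at 288 and 484 CPM. Of the cDC1 list 4 of 8 were higher, with Naaa at a ratio of 4.24 (2.97 to 6.13) and Wdfy4, required for cross-presentation, at 0.397 (0.241 to 0.627), while Ifi205 was at 0.371 (0.246 to 0.544). Of the cDC2 list 5 of 11 were higher, with Tmem176b at 129 and 270 CPM, Itgam, the CD11b integrin chain, at 183 and 319 CPM, and Sirpa at 127 and 62.4 CPM.

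In the transgenic members most of the measured MHC class II list stood higher. Among 12 measured genes 8 were higher, against 33.2% of all genes, and their median log2 ratio was 0.25 against -0.24. H2-Ab1 was at 8726 and 11107 CPM (1.27, 1.23 to 1.32), and H2-Eb1 at 9830 and 12170 CPM (1.24, 1.2 to 1.28), in every member of both libraries. Over all other barcodes their ratios were 0.862 and 0.797. Per cell, H2-Ab1 ranged from 22.9 to 172 UMIs per 10000 with a median of 77.8 in wild type, and from 23.8 to 197 with a median of 112 in the transgenic library, so the ranges overlapped. Ctss, the protease that trims the invariant chain, was at 1236 and 1849 CPM (1.5, 1.36 to 1.64). In contrast Ciita was at 119 and 57.4 CPM (0.481, 0.293 to 0.758), with 65.2% of its 23 transgenic UMIs in 1 cell and a ratio of 0.784 (0.472 to 1.25) with Flt3 or Zbtb46, and H2-DMb2, a chain of the peptide editor, at 192 and 87.4 CPM (0.456, 0.308 to 0.657). Ifi30, a lysosomal thiol reductase that prepares antigen, was at 2000 and 1365 CPM (0.683, 0.620 to 0.751). These 3 directions turned with at least 3 markers, where the log2 ratios were 0.82 for Ciita, 0.35 for H2-DMb2 and 0.10 for Ifi30.

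Class II genes are known to share a Y box in their promoters, a site for the factor NF-Y beside which the machinery recruited by Ciita assembles. The letters CTGATTGG occurred on either strand in 3.83% of the 32851 windows and in 4 of the 12 matched genes out of 14, counting H2-Aa with the class II list. H2-Aa, H2-Eb1, H2-Eb2 and H2-Oa held them. Those of H2-Aa and H2-Eb1 are shown because these genes were the most abundant of the matched ones with the letters, H2-Aa at chr17:34287824-34287934 on the minus strand and H2-Eb1 at chr17:34305745-34305866 on the plus strand. Each line is written in the direction of its gene, with the Y box in capitals, and its last base is the one before the gene start.
H2-Aa: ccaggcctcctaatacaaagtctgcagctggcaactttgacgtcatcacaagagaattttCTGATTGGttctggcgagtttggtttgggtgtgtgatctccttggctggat
H2-Eb1: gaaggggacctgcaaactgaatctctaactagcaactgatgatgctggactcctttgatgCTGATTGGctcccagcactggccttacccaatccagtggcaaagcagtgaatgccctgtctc
The Y box starts 51 bases before the start of H2-Aa and 62 bases before that of H2-Eb1. H2-Oa, which also holds the letters, was at 50.3 and 44.9 CPM in members.

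Class I presentation and costimulation were mixed. Of 17 class I genes 3 were higher, against 33.2% of all genes, and the median log2 ratio was -0.38, against -0.24. H2-D1, a class I heavy chain, was at 1445 and 1957 CPM, while H2-Q7, which has near-identical copies that reads may be split between, had a ratio of 0.685 (0.490 to 0.943) and Tap1, a peptide transporter, one of 0.429 (0.186 to 0.881). Of 14 costimulation and checkpoint genes 4 were higher, and their median log2 ratio of -0.23 was close to that of all genes. Cd80 was at 754 and 329 CPM (0.437, 0.360 to 0.527), in 79 of 84 and 24 of 41 members, and its ratio was 0.496 (0.390 to 0.623) with Flt3 or Zbtb46 and 0.352 over all other barcodes. Cd86, the other ligand of CD28, was at 557 and 646 CPM (1.16, 0.997 to 1.35). Cd48, an adhesion ligand of lymphocytes, had a ratio of 0.319 (0.192 to 0.505) and Tnfsf9, the ligand of 4-1BB, one of 2.77 (1.91 to 4.03), which was 1.76 (1.04 to 2.90) with Flt3 or Zbtb46.

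**Figure D5:**
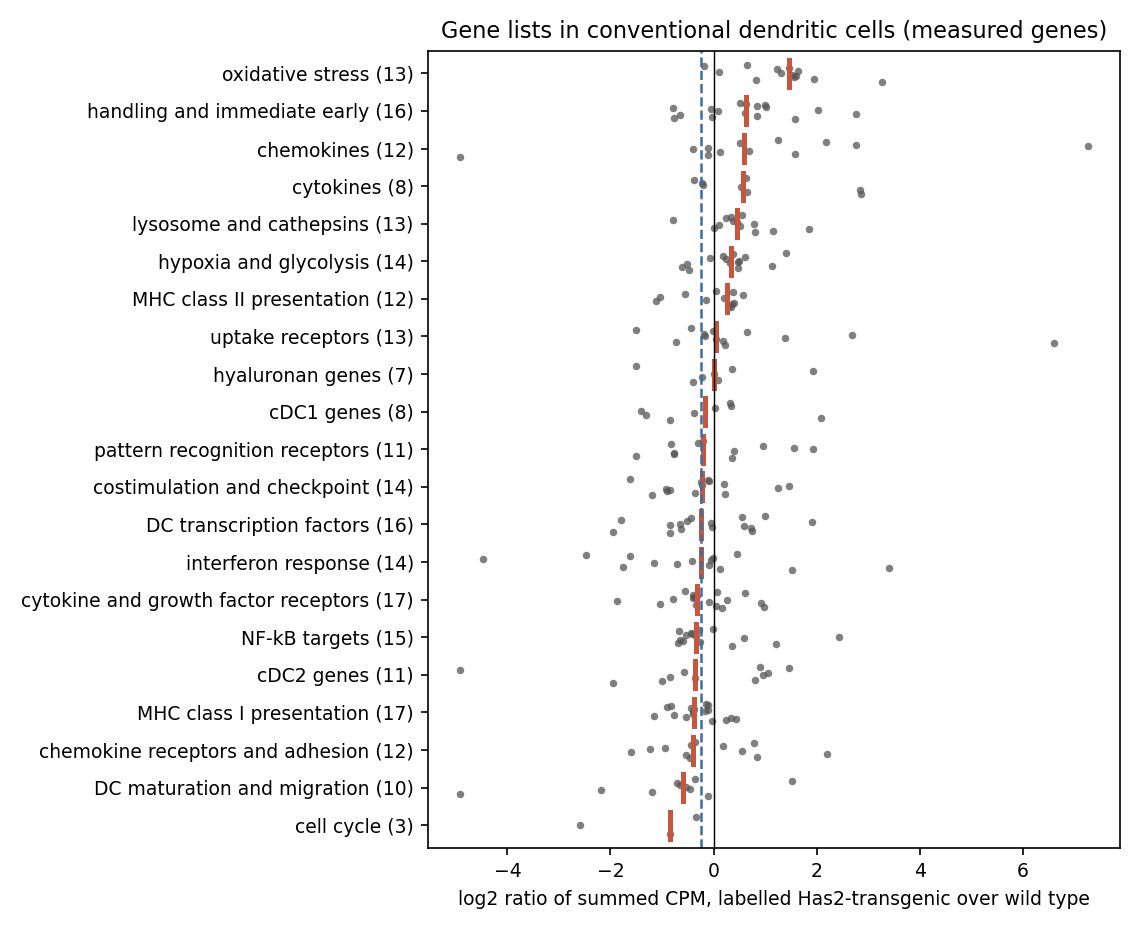
Log2 ratio of summed CPM between the libraries (x axis, positive where higher in the library labelled Has2-transgenic) for the measured genes of each list of gene function (points; number of genes in brackets), with the list median as a red bar and the median of all measured genes, -0.24, as a dashed line. Oxidative stress has the highest median, 1.47, and maturation, at -0.59, the lowest of those lists with more than 3 genes; Ccl5 and Cd163, the 2 points beyond 6, had 0 UMIs in wild type, so their place depends on the 0.5 UMI added.

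Lysosomal genes were higher as a group. Among 13 measured genes 12 were higher and 2 at least 2-fold, against 33.2% and 4.26% of all genes. The median log2 ratio was 0.46, and 0.11 with at least 3 markers. Ctsl, the cathepsin L protease, was at 60.7 and 220 CPM (3.62, 2.57 to 5.13), which was 3.19 (2.11 to 4.80) with Flt3 or Zbtb46. Ctsb was at 337 and 587 CPM, and Ctsd at 144 and 322 CPM with a ratio of 2.23 that was 1.14 (0.782 to 1.64) with Flt3 or Zbtb46. Of 14 genes of hypoxia and glycolysis 10 were higher, against the same 33.2%, median log2 ratio 0.34. Vegfa, the vascular growth factor, was at 71.2 and 190 CPM (2.66, 1.90 to 3.75) and Pkm, the last enzyme of glycolysis, at 516 and 784 CPM, while Hk2, which starts it, had a ratio of 0.642 (0.328 to 1.18).

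Interferon and NF-kB genes showed no common direction. The interferon response list had 4 of 14 genes higher, against 33.2% of all genes. Its median log2 ratio was -0.25, which was 0.52 when each member was thinned to 2000 UMIs. Oasl1, an antiviral gene, had a ratio of 10.8 (7.25 to 16.4), but 51.4% of its 140 transgenic UMIs were in 1 cell and the ratio was 0.877 (0.326 to 2.03) with Flt3 or Zbtb46. Isg15, a ubiquitin-like interferon product, was at 146 and 417 CPM, with 56.1% and 41.9% of its UMIs in the highest cell of each library. Of 15 NF-kB targets 4 were higher, median -0.35, with Tnfaip2 at a ratio of 5.49 (3.31 to 9.39), which was 2.4 (1.11 to 5.03) with Flt3 or Zbtb46, Nfkbiz at 2.31 (1.79 to 2.98) and Nfkb1 at 0.616 (0.539 to 0.702). Of 16 handling and immediate early genes, which respond to dissociation, 11 were higher and 5 lower, median 0.62. The counting interval of the ratio lay above 1 for 9 of the 16 and below 1 for 2. Ier3 had a ratio of 4.09 (3.59 to 4.67) and Fos one of 2.99 (2.07 to 4.34), which over all other barcodes were 0.930 and 2.16. In members with Flt3 or Zbtb46 they were 2.22 (1.85 to 2.65) and 2.64 (1.68 to 4.11), and with at least 3 markers the log2 ratio of Ier3 was -0.77. What part dissociation had in the differences between libraries was not tested.

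Receptors were likewise divided. Gpr183, which guides cells along oxysterols, was at 455 and 192 CPM (0.422, 0.327 to 0.539), and Cyp7b1, an enzyme in the synthesis of its ligand, had 116 and 2 UMIs. Ccr9 had a ratio of 4.67 (2.80 to 7.98), with 74.5% of its 47 transgenic UMIs in 1 cell. Csf2ra, a chain of the GM-CSF receptor, was at 152 and 300 CPM (1.97, 1.54 to 2.53), while Kit, the stem cell factor receptor, was at 99.5 and 47.4 CPM and Il7r at 958 and 552 CPM. The C-type lectin receptors Clec4d and Clec4e had ratios of 3.81 (3.20 to 4.54) and 2.94 (2.44 to 3.55), and with Flt3 or Zbtb46 of 2.84 and 1.39. Klrd1 was at 796 and 407 CPM, in 65 of 84 and 19 of 41 members, and Klrb1b at 249 and 339 CPM.

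Hyaluronan is what the overexpressed enzyme makes, and few of its genes were measurable. Of 19 listed genes 7 were measured and 4 of these were higher, against 33.2% of all genes. The median log2 ratio of the 7 was 0.00. One of the 4 was Gusb, a lysosomal glucuronidase, which counted as higher through the added 0.5 UMI alone, since its raw ratio was 0.990. Cd44, the main hyaluronan receptor, had UMIs in 80 of 84 and 39 of 41 members, at 1097 and 834 CPM (0.760, 0.670 to 0.860), against a ratio of 0.802 over all other barcodes. Vcan, a hyaluronan-binding proteoglycan that monocytes also make, had 34 UMIs in 5 wild-type and 55 in 10 transgenic members, a ratio of 3.86 that was 1.14 (0.503 to 2.37) with Flt3 or Zbtb46. Tlr4, which can sense hyaluronan fragments, had 50 and 7 UMIs. Lyve1, Hmmr, Layn, Has1 and Has3 were at 0 in both.

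The 10 genes with the largest ratios in each direction, among those with at least 100 UMIs and 100 CPM, were Lyz2, Areg, Oasl1, Pltp, Phlda1, Hmox1, Procr, Il1a, Ccl6 and Blvrb on the higher side. Areg, an epidermal growth factor family ligand, had a ratio of 11.5 (8.38 to 16.1), which was 2.53 (1.54 to 4.10) with Flt3 or Zbtb46, and Pltp, a phospholipid transfer protein, 10.6 and 4.07. Procr, the receptor of protein C, was at 47.1 and 392 CPM (8.32, 5.94 to 11.9), and its ratio was 8.13 (5.59 to 12) with Flt3 or Zbtb46, in 16 of 84 and 17 of 41 members. On the lower side were Ccl17, Cyp7b1, Arg1, Hbegf, Ccnd2, Jaml, Spp1, Slfn5, Il4i1 and Creb5. Hbegf, another growth factor of that family, had 143 UMIs in 38 wild-type members and 5 in 4 transgenic members, a ratio of 0.0834 (0.0267 to 0.199), against 1.33 over all other barcodes. Arg1, the arginine-degrading enzyme, had 132 UMIs in only 7 wild-type members and 3 in 1 transgenic member. Jaml, an adhesion molecule, was seen in 41 of 84 and 5 of 41 members, and Ccnd2, a cyclin, in 35 and 5.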

How the data were processed

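Libraries were made from dissociated skin with the 10x GEM-X 5' v3 kit, per the labels' protocols, and counted with Cell Ranger 9.0.1 against GRCm39, per the submitters' processing notes. The deposited values are raw UMI counts per gene and barcode in the filtered matrices, per the file headers. One label gives total RNA and one polyA RNA as the molecule. Members and lists were chosen with earlier results of these data known. UMIs were summed over members per library and given per 1000000 UMIs (CPM). Genes with at least 20 UMIs in members counted as measured, and 0.5 UMI was added for log2 ratios. Intervals are exact (Clopper-Pearson, Poisson and conditional binomial, 95%), cover counting error only, and a count of 0 allows up to 3 UMIs. Doublets were not removed: Scrublet marked 1.37% and 0% of barcodes, so its top scores (expected 6.80% and 5.85%) were removed only as an alternative. Genes named were members of the lists, the 10 with the largest ratio between libraries in each direction and the 8 between subsets. No test was possible with 1 library per genotype. Scripts, checked on simulated counts, used Python 3.11.15, numpy 2.4.6, scipy 1.17.1, pandas 2.3.3 and scanpy 1.11.5. Other settings tried were membership rules, depth, scaling and filters.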

Additional observations from a re-analysis of the deposited data

How the results depend on the processing

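The smaller share of dendritic cells and the cDC1-marked share of members kept their direction under every alternative run, but the ratio of shares was 0.299 when at least 3 of 6 markers were required, which left 39 and 10 members. The count of cDC2 genes lower in cDC1-marked members in both libraries, 10 of 11 in the main setting, was then 5 of those 11 with 3 and 1 cDC1-marked members, and 4 of 11 when the rule was applied after thinning barcodes to 2000 UMIs (27 and 13 members, 5 and 3 of them cDC1-marked). Those alternatives of the subset counts were chosen after seeing the data. List medians (log2) with at least 3 markers were cytokines -1.31, chemokines -1.66, interferon response 0.36, oxidative stress 0.28, lysosome and cathepsins 0.11, hyaluronan genes -0.58. With Flt3 or Zbtb46 needed they were cytokines 0.10, chemokines -0.26, oxidative stress 0.98. After thinning before the rule they were maturation and migration -1.55, cytokines -1.02, chemokines -0.44, cytokine and growth factor receptors -0.75, uptake receptors -0.49, interferon response 1.33, oxidative stress 0.60, hyaluronan genes -0.58, and with each member thinned interferon response 0.52. Chemokines turned direction with at least 3 markers, with Flt3 or Zbtb46 needed and after thinning before the rule, and cytokines with at least 3 markers and after that thinning. Of the genes named in the text, those that turned direction, as log2 ratios, were with at least 3 markers Oasl1 -1.41, Phlda1 -1.41, Il1a -0.96, Slfn5 0.045, H2-DMb2 0.35, Ciita 0.82, Ifi30 0.10, Sod2 -0.62, Isg15 -0.61, Il6 -1.90, Cxcl2 -2.34, Cebpb -0.078, Naaa -0.27, H2-Q7 1.06, Ctsd -0.46, Clec4e -1.88, Ier3 -0.77, Vcan -3.00, Mgl2 0.19, Klrd1 1.07, Txnrd1 -0.077, Cxcl3 -3.28, Il1rn -1.26, Fabp5 1.15. With Flt3 or Zbtb46 needed they were Oasl1 -0.11, Sod2 -0.034, Mt2 -0.24, Cxcl3 -1.04, Cxcl10 -3.82, Il1rn -1.16, Fabp5 0.026. After thinning before the rule they were Oasl1 -2.12, Ccl6 -0.44, Ciita 1.40, C1qb -3.03, Sod2 -1.38, Isg15 -0.53, Il1b -0.72, Il6 -2.40, Cxcl2 -0.78, Irf8 2.64, Ifi205 0.27, Tnfsf9 -0.53, H2-Q7 1.05, Mgl2 0.098, Klrd1 0.38, Mt2 -2.00, Cxcl3 -0.82, Il1rn -0.82, and with each member thinned Ikzf1 0.38, Tlr4 1.03. In cDC2-marked members alone they were Fabp5 0.0031, Gpx1 0.0031, and with scaling by the median ratio Gpx1 0.063. The cause was not tested, and both rules leave fewer cells. Of the other values of named genes under all alternatives, 861 stayed within the counting interval of the main value, and 198 left it without turning a called direction. The other 253 list medians stayed between the median lower and the median upper counting bound of their genes. Those bounds are no interval of the median itself. The limits of 500 genes and of 10% mitochondrial UMIs left the members at 84 and 41. Each of these limits therefore gave 21 of the 253 medians and 95 of the 861 values with an outcome fixed in advance. No ratio was formed for 27 values of 21 genes with at most 3 UMIs in each library. With 10 to 43 transgenic members, genes under 20 UMIs could not be compared, and no spread between animals was measured. No paired analysis was possible because each genotype has 1 library.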
